A study of Mus musculus with 11 samples.

Results

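Stellate cell and matrix genes were followed in livers of mice with induced hepatocellular carcinoma: Col1a1, Col1a2, Col3a1, Col4a1, Col4a2, Sparc, Acta2, Lrat, Reln and Ngfr. They were chosen by name, as the rows of the deposited gene table that carry these 10 symbols, out of 43346 genes. RNA was measured by sequencing of bulk liver from 11 mouse libraries, all of the FVB/NJ strain and all with tumours induced by expression of MET and β-catenin, so the controls carry the tumour-inducing genes as well. The groups were 6 libraries labelled responder to anti-PD-1, an antibody against an immune checkpoint receptor, 4 labelled non-responder to it, and 1 whose response label reads non treatment, called no treatment here, although its treatment label still names anti-PD-1. The labels give no age, dose or time, and nothing in them says that libraries came from separate mice, so p-values cover only the spread between libraries, which may be technical. How the tumour-inducing genes were delivered, and to which cells, is not given in the sources used here.

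Hepatic stellate cells lie between hepatocytes and the endothelium of the sinusoids and store vitamin A as retinyl esters. On injury they lose these stores, take on the contractile traits of myofibroblasts and lay down fibrillar collagen, which makes them the main source of scar matrix in liver. Basement membrane proteins such as type IV collagen form a separate, sheet-like matrix under vessels and ducts, and other cells of the liver make them too. In bulk liver, fewer cells of a type and less RNA per cell cannot be told apart.

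Gene counts per library came to 17876515 to 40565708 in responders, 25542066 to 39941835 in non-responders and 49884800 in the no-treatment library. Non-responder replicate 1 (title number 26) stood apart in where reads fell along genes. Its 3′ coverage index, the median log2 ratio of read density between the 3′ and 5′ parts of 8766 genes, was 0.86, against -0.39 to -0.17 in the other 10 libraries. Results to which this library contributes most are therefore given with and without it. Title numbers ran from 1 to 29 in responders and from 26 to 37 in non-responders, and a log2 index of read density in Ctnnb1 exon 12 and Met exon 17 ran from 0.34 to 1.51 in responders and from 1.46 to 2.38 in non-responders, so both nearly separate the groups. With either one as a covariate in the same edgeR fit, no gene of the 10 passed the threshold and at most 1 gene of all did. With the title number Sparc was at -1.49 ± 0.57, Col1a1 at -2.48 ± 1.12, Acta2 at -2.10 ± 1.10, Col4a1 at -0.61, Col4a2 at -0.40 and Ngfr at 0.74 on the log2 scale.

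Levels are CPM, read counts scaled to a common library size by the TMM method over all libraries. Differences are log2 fold changes of responders over non-responders with their standard errors from edgeR's quasi-likelihood test, with p-values adjusted by the Benjamini-Hochberg method over all 17610 genes tested and a threshold of 0.05. All 10 genes passed the filter on low counts. Ngfr was higher in responders; Col4a1, Col4a2 and Sparc were lower; the other 6 did not pass. Among all genes tested 9.93% passed, 4.11% higher and 5.82% lower. Of the 6 that did not pass, 5 had an unadjusted p under 0.05 in the same edgeR test, as did every gene that passed. Among all genes tested, with those that passed counted in, 27.3% had one. The median log2 fold change was -0.93 over the 10 genes and -0.02 over all genes tested, and 8 of the 10 were below 0. In 2 of the 10 genes, Sparc and Ngfr, the CPM of responders and non-responders did not overlap, against 11.3% of all genes tested.

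**Figure D1:**
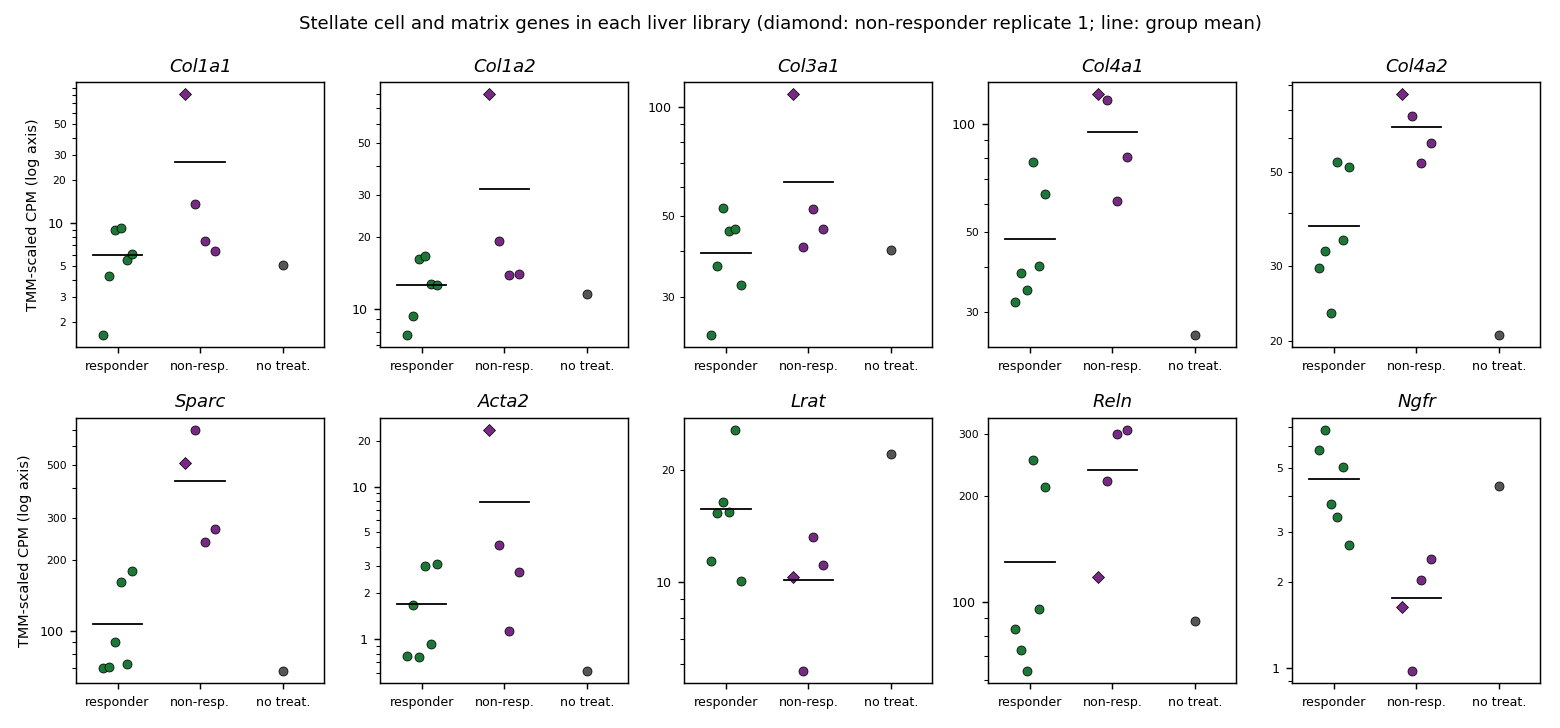
TMM-scaled CPM (log axis) of the 10 genes in each library, in 6 responder, 4 non-responder and 1 no-treatment libraries; each point is a library, the line is a group mean and the diamond is non-responder replicate 1. Sparc and Ngfr separate the responders from the non-responders completely, and the diamond lies highest of all libraries for Col1a1 (80.9 CPM), Col1a2 (80.0), Col3a1 (108.4), Col4a1 (120.5), Col4a2 (76.0) and Acta2 (23.6).

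**Figure D2:**
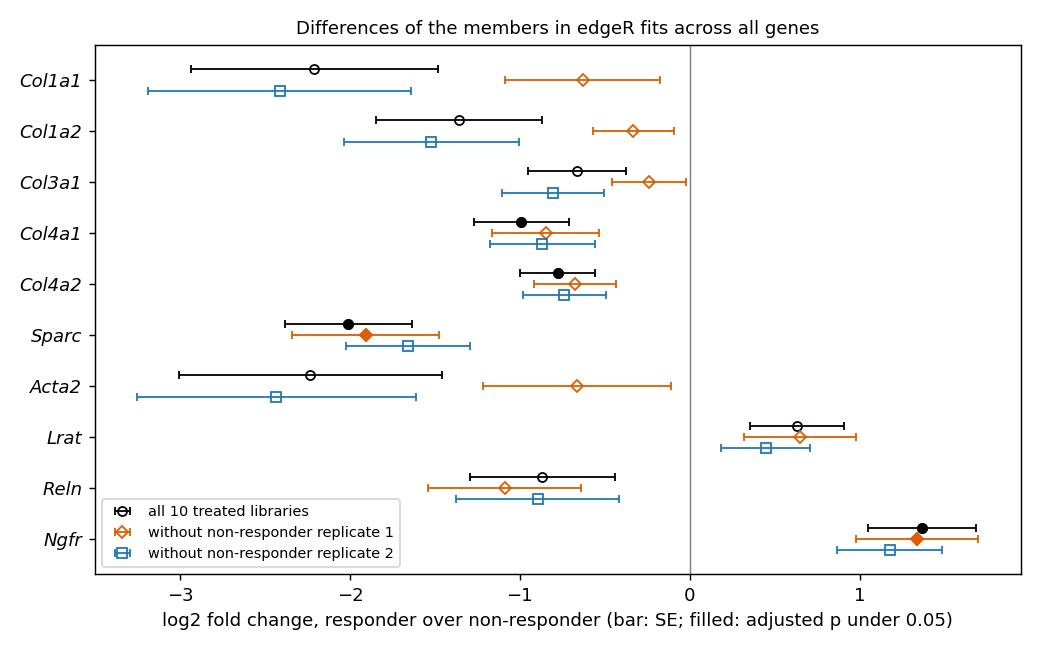
Log2 fold change of responders over non-responders for each gene (point) with its SE (bar), from edgeR fits over all 10 treated libraries, without non-responder replicate 1 and without non-responder replicate 2; filled points have an adjusted p under 0.05. Col1a1, Col1a2, Col3a1 and Acta2 move towards 0 without replicate 1, to -0.63, -0.33, -0.24 and -0.66, and no point is filled without replicate 2.

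Type IV collagen, whose chains are encoded by Col4a1 and Col4a2, is the network-forming collagen of basement membranes. The genes lie head to head on chromosome 8 (mm10), Col4a1 (ENSMUSG00000031502) at chr8:11198423-11312826 on the minus strand and Col4a2 (ENSMUSG00000031503) at chr8:11312805-11449287 on the plus strand. Their starts lie 21 bases apart. The promoter windows from RefSeq (GRCm38.p6), 250 bases before to 50 after each start, are shown because both genes passed the threshold in the same direction and share this start region. They cover chr8:11312777-11313076 for Col4a1 and chr8:11312555-11312854 for Col4a2, and share 78 bases. Capitals mark matches to CCAAT or GGGCGG on either strand.
Col4a1: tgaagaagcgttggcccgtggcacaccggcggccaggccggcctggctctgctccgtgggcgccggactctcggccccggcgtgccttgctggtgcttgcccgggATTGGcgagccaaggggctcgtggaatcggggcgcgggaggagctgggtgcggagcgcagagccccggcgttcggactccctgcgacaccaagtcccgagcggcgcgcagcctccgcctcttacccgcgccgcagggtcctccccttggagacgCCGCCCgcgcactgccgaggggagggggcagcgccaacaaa
Col4a2: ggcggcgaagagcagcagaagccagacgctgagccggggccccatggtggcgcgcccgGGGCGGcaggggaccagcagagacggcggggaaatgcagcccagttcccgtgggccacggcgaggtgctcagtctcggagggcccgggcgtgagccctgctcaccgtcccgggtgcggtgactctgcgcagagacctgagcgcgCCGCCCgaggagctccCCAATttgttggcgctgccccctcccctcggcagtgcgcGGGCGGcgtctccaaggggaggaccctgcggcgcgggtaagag
The Col4a1 window held 1 CCAAT, on the opposite strand 145 bases before the start, and 1 GGGCGG. The Col4a2 window held 1 CCAAT and 3 GGGCGG. The GGGCGG of Col4a1, 9 bases after its start, and the Col4a2 match 7 bases after its start are the same bases, in the shared stretch. The windows contain 74.0% and 73.7% G and C. Over 32851 RefSeq promoter windows of the same length, 37.4% held CCAAT and 35.7% held GGGCGG. Neither window held TATAAA (in 13.6% of all windows), nor CATTCC (in 14.7%), nor the CArG box (in 1.63%). A match is a description and not a shown binding site.

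Col4a1 had a lowest, median and highest value of 31.9, 39.4 and 78.4 CPM in the 6 responder libraries, and 120.5, 116.3, 61.1 and 80.7 CPM in non-responder replicates 1 to 4. The groups overlapped: 4 of the 6 responders lay below the lowest non-responder, and responder replicates 4 and 6 lay above it. Col4a1 averaged 47.9 ± 18.8 CPM in responders (SD, n = 6) and 94.6 ± 28.6 CPM in non-responders (n = 4), which edgeR put at -0.99 ± 0.28 on the log2 scale (adjusted p = 0.0472). Col4a2 had 23.3, 33.6 and 52.7 CPM as the lowest, median and highest in responders, and 76.0, 67.8, 52.5 and 58.4 CPM in non-responder replicates 1 to 4. Here 5 of the 6 responders lay below the lowest non-responder, and responder replicate 4 was just above it. Col4a2 averaged 37.3 ± 11.9 CPM in responders and 63.7 ± 10.3 CPM in non-responders, which edgeR put at -0.78 ± 0.22 on the log2 scale (adjusted p = 0.0466). Neither gene passed with scaling by library size only, without the filter on low counts or with summed exon counts. Both calls were also lost without non-responder replicate 1 (-0.85 ± 0.32 for Col4a1, adjusted p = 0.114, and -0.68 ± 0.24 for Col4a2, adjusted p = 0.103) and without non-responder replicate 2 (-0.87, adjusted p = 0.139, and -0.74, adjusted p = 0.123), while the log2 fold changes stayed near those of the full fit. Each call held in 3 of the 10 fits with a library removed. The 2 genes share 22 exon bases in the gene models, 0.295% of Col4a1 and 0.332% of Col4a2.

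Sparc, on chr11:55394500-55420080 (minus strand, ENSMUSG00000018593), encodes a secreted matricellular protein that binds collagen and calcium and acts in the assembly of matrix. Its lowest, median and highest values in responders were 70.2, 81.6 and 178.9 CPM, and the 4 non-responders had 510.8, 700.9, 236.1 and 269.8 CPM. Every responder lay below every non-responder, and the 2 highest responders, replicate 6 (178.9 CPM) and replicate 4 (161.0 CPM), lay nearest to them. Sparc averaged 107.4 ± 49.3 CPM in responders (SD, n = 6) and 429.4 ± 218.5 CPM in non-responders (n = 4), which edgeR put at -2.01 ± 0.38 on the log2 scale (adjusted p = 0.0173). The call held in 9 of the 10 fits with a library removed and was lost without non-responder replicate 2, at -1.66 ± 0.36 (adjusted p = 0.0634). Without non-responder replicate 1 it was -1.91 ± 0.43 (adjusted p = 0.0334). Exon counts in the 5′ part of Sparc's exon bases alone gave 45.6 to 111.4 CPM in responders. Non-responders had 162.4, 474.1, 155.8 and 178.1 CPM there, again with no overlap. Its RefSeq promoter window, at chr11:55420031-55420330 (GRCm38.p6), is shown because Sparc had the lowest adjusted p of the 10.
Sparc: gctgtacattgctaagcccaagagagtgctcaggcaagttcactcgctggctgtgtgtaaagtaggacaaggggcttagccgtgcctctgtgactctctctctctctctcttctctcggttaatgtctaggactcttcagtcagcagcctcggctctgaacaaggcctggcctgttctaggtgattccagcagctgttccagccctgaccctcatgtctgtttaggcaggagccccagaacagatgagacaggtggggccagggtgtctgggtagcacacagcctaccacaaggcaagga
This window had 55.3% G and C and held none of the motifs searched, which says only that those letters are not in it.

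The fibrillar collagens did not pass the test. Type I collagen, the main scar collagen, is made from a pair of chains encoded by Col1a1 with a chain encoded by Col1a2, and type III collagen from chains of Col3a1. Col1a1 (chr11:94936224-94953042, ENSMUSG00000001506) had a lowest, median and highest value of 1.61, 5.74 and 9.26 CPM in responders, and 80.9, 13.5, 7.50 and 6.38 CPM in non-responder replicates 1 to 4. The groups overlapped between 6.38 and 9.26 CPM, and replicate 1 stood far above the others in its group. The log2 fold change was -2.21 ± 0.73 (edgeR adjusted p = 0.0806; with DESeq2, 0.0324). Without non-responder replicate 1 the means were 5.92 ± 2.90 CPM in responders (SD, n = 6) and 9.14 ± 3.85 CPM in non-responders (n = 3), and the log2 fold change was -0.63 ± 0.46 (adjusted p = 0.401).

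Col1a2 (chr6:4504814-4541543) had 7.70, 12.6 and 16.7 CPM as the lowest, median and highest in responders, and 80.0, 19.3, 13.9 and 14.0 CPM in non-responders. The non-responders other than replicates 1 and 2 lay inside the responder range. The log2 fold change was -1.36 ± 0.49 (edgeR adjusted p = 0.0997), and -0.33 ± 0.24 (adjusted p = 0.392) without non-responder replicate 1. Col3a1 (chr1:45311538-45349706) had 23.4, 41.0 and 52.7 CPM in responders, and 108.4, 41.1, 52.2 and 46.2 CPM in non-responders. All non-responders except replicate 1 lay inside the responder range. The log2 fold change was -0.66 ± 0.29 (edgeR adjusted p = 0.166), and -0.24 ± 0.22 (adjusted p = 0.511) without replicate 1. The 3 genes were highest in non-responder replicate 1 among all 11 libraries.

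Acta2 encodes the smooth muscle actin that marks activated stellate cells and myofibroblasts. Closely related actin genes share much of its coding sequence, so its reads could be split among them by the authors' counting, and its values are uncertain for that reason. Acta2 had 0.762, 1.29 and 3.10 CPM as the lowest, median and highest in responders, from 19 to 125 reads a library, and 23.6, 4.15, 1.13 and 2.73 CPM in non-responders. Non-responder replicates 1 and 2 lay above all responders, while replicates 3 and 4 lay inside their range. The log2 fold change was -2.23 ± 0.77 (edgeR adjusted p = 0.0904; with DESeq2, 0.0446). It was -2.60 (adjusted p = 0.0435) without non-responder replicate 3, and -0.66 ± 0.55 (adjusted p = 0.47) without non-responder replicate 1.

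Reads of these genes lay nearer the 3′ end in non-responder replicate 1 than elsewhere. The share of reads in the 3′ part of the exon bases was 71.0% for Sparc in that library, against 43.8% to 47.7% in the other 10, and 72.4% against 45.0% to 52.7% for Col4a2. For Col1a1 it was 53.9% against 30.6% to 51.6%. In 9 of the 10 genes this library's share lay above all others, the exception being Acta2 at 34.4%, against 9.76% to 37.5%. Reads in the 5′ part of Col1a1 alone still gave 1.21 to 8.46 CPM in responders and 53.1, 11.8, 7.68 and 5.86 CPM in non-responders, so replicate 1 was highest there as well. In the 5′ part of Col4a2, by contrast, replicate 1 had 25.3 CPM and was the lowest non-responder, below replicates 2 to 4 at 46.4, 36.4 and 38.9 CPM. CPM of a gene part sums exon counts, which came to 3171 for Col1a1 in replicate 1, against a gene count of 2227. Such values are therefore not on the scale of the CPM of whole genes.

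**Figure D3:**
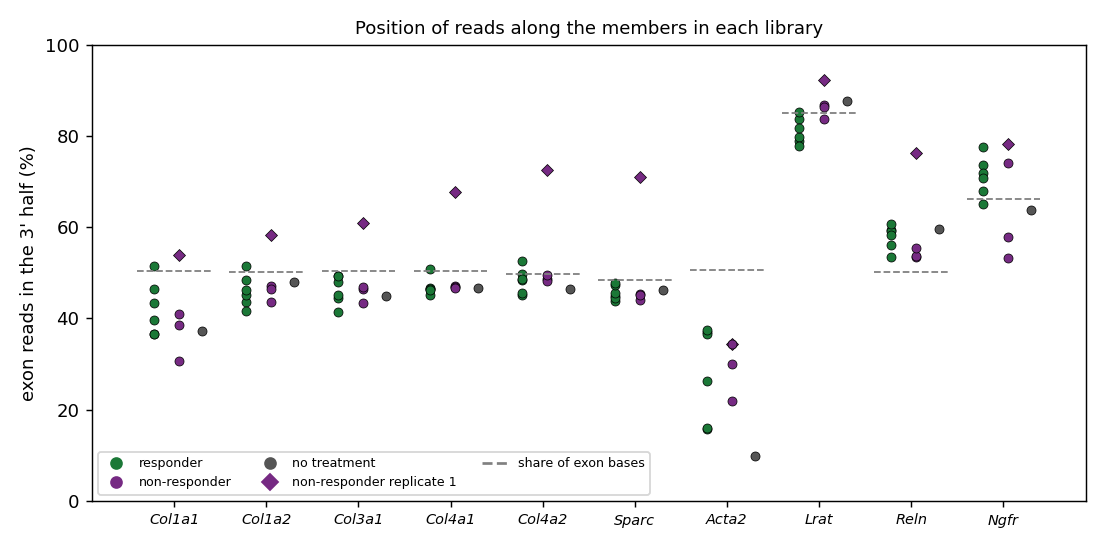
Share of each gene's exon reads that fell in the 3′ part of its exon bases (vertical axis, percent) in each library, coloured by group, with the share of exon bases in that part as a dashed line. The diamond, non-responder replicate 1, lies above all other libraries for 9 of 10 genes, at 71.0% for Sparc and 72.4% for Col4a2.

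The remaining 3 genes mark stellate cells, and their differences did not all point the same way. Ngfr, on chr11:95568818-95587735 (minus strand, ENSMUSG00000000120), encodes the p75 neurotrophin receptor. It had a lowest, median and highest value of 2.71, 4.39 and 6.82 CPM in responders, and 1.64, 0.977, 2.03 and 2.40 CPM in non-responders. Every responder lay above every non-responder, and the responder nearest to them was replicate 6. Exon counts in the 5′ part of Ngfr alone gave 0.80 to 2.03 CPM in responders. Non-responders had 0.36, 0.43, 0.54 and 1.23 CPM there, so the groups overlapped, while in the 3′ part they did not. Ngfr averaged 4.58 ± 1.58 CPM in responders (SD, n = 6) and 1.76 ± 0.61 CPM in non-responders (n = 4), which edgeR put at 1.37 ± 0.32 on the log2 scale (adjusted p = 0.0268). This rests on 861 reads in responders and 256 in non-responders. It held without non-responder replicate 1 (1.34 ± 0.36, adjusted p = 0.0443) and in 6 of the 10 fits with a library removed, and was lost without responder replicates 1 (adjusted p = 0.0581), 2 (0.0594) and 5 (0.0611) and without non-responder replicate 2 (0.0762). Its RefSeq promoter window, at chr11:95587649-95587948 (GRCm38.p6), is shown because Ngfr was the gene called higher.
Ngfr: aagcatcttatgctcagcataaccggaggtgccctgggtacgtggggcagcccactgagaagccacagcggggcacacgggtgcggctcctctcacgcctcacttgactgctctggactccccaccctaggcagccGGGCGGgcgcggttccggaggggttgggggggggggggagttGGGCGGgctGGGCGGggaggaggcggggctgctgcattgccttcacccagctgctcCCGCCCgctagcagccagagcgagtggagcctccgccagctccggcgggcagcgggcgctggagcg
It had 71.7% G and C and 4 matches to GGGCGG, in capitals.

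Lrat, on chr3:82892579-82903973, encodes lecithin retinol acyltransferase, which makes the retinyl esters that stellate cells store. It had 10.05, 15.4 and 25.7 CPM as the lowest, median and highest in responders, and 10.3, 5.76, 13.2 and 11.1 CPM in non-responders. The groups overlapped, with 3 non-responders in the lower part of the responder range and replicate 2 below it. The log2 fold change was 0.63 ± 0.28 (edgeR adjusted p = 0.166). Reln, on chr5:21884454-22344702, encodes reelin, a secreted glycoprotein that marks stellate cells in liver. It had 63.7, 89.6 and 253.9 CPM in responders, and 117.9, 220.9, 301.8 and 309.3 CPM in non-responders. Responder replicates 4 (253.9 CPM) and 6 (212.2 CPM) lay within the non-responder range and the other 4 below it. The log2 fold change was -0.87 ± 0.43 (edgeR adjusted p = 0.215). With limma-voom and quality weights it was -1.51 (adjusted p = 0.0186). Without non-responder replicate 1, the lowest non-responder, it was -1.09 ± 0.45 (edgeR adjusted p = 0.148). In that library 76.2% of Reln reads lay in the 3′ part, against 53.4% to 60.6% in the others. Exon counts in its 5′ part gave 32.4 CPM there, against 33.4 to 149.9 CPM in responders.

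Responder replicates 4 and 6, the highest responders for Sparc, Col4a1, Col4a2, Reln and Acta2, also had the highest values of the Ctnnb1 and Met exon index among responders, at 1.31 and 1.51 against 0.34 to 0.57 in the others. With the index as a covariate Sparc was at -0.57 (edgeR adjusted p = 0.795) and Ngfr at 0.43, and the index and the response label cannot be told apart in these libraries.

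The no-treatment library is 1 sample and was placed by its value only. Sparc was at 68.3 CPM, Col4a1 at 25.8, Col4a2 at 20.6 and Acta2 at 0.616, each below all 10 treated libraries. For the other 6 it lay within the range of the responders and outside that of the non-responders, with Col1a1 at 5.09, Col1a2 at 11.5, Col3a1 at 40.4, Lrat at 22.1, Reln at 88.2 and Ngfr at 4.33 CPM.

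Levels of different genes were compared per length, as the authors' deposited RPKM. RPKM divides by the listed length, which can exceed that of the transcript with most exon reads. Listed and transcript lengths were 19834 and 11699 bases for Reln, 12136 and 5347 for Col1a2, and 9816 and 5564 for Col3a1. They were closer for Col4a1, at 6818 and 6615, so the order below depends on the length used. Sparc was the highest of the 10 in all 3 groups, with 21.7 ± 10.2 RPKM in responders, 92.7 ± 49.7 RPKM in non-responders and 12.8 RPKM in the no-treatment library. In responders the order from the highest was Sparc, Col4a1, Reln, Col4a2, Col3a1, Lrat, Ngfr, Col1a2, Acta2 and Col1a1. In non-responders it was Sparc, Col4a1, Reln, Col4a2, Col3a1, Acta2, Col1a1, Col1a2, Lrat and Ngfr. Among neighbours in these orders, ranges over libraries did not overlap for Sparc and Col4a1, in both groups, or for Lrat and Ngfr, in non-responders; all other neighbours overlapped. The non-responder order depended on replicate 1, with 10.3 RPKM for Acta2, 9.58 for Col1a1 and 5.12 for Col1a2. Without that library it was Sparc, Reln, Col4a1, Col4a2, Col3a1, Lrat, Col1a1, Acta2, Col1a2 and Ngfr. Ngfr averaged 0.889 ± 0.278 RPKM in responders and 0.363 ± 0.117 RPKM in non-responders.

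Ratios between genes within a library do not depend on the scaling between libraries. The level of a ratio depends on the listed lengths given above, so it is not a ratio of chains. Differences between groups do not depend on those lengths. Of 8 ratios, taken per length, none passed after adjustment over the 8 by two-sided exact permutation tests, for which the smallest p possible is 0.00952, and the groups overlapped in every one. At that smallest p a lone ratio would still not pass after adjustment, so not passing does not show that the groups were alike. The ratio of Reln to Lrat had a geometric mean of 2.02 in responders and 6.19 in non-responders, with a log2 difference of -1.62 (exact p = 0.0476, adjusted p = 0.190). The ratio of Ngfr to Lrat was 0.452 in responders and 0.270 in non-responders, with a log2 difference of 0.74 (exact p = 0.0190, adjusted p = 0.152). Col4a1 to Col4a2, the chains of 1 network, was 1.23 in responders and 1.40 in non-responders, with a log2 difference of -0.20 (exact p = 0.210, adjusted p = 0.335). Col1a1 to Col1a2, the chains of type I collagen, was 0.790 in responders and 1.20 in non-responders, with a log2 difference of -0.60 (exact p = 0.105, adjusted p = 0.279). Col3a1 to Col1a1 was 4.93 in responders and 2.53 in non-responders (exact p = 0.143, adjusted p = 0.286). The ratio of Acta2 to Col1a1 was 1.03 in responders and 1.02 in non-responders (exact p = 0.952). Sparc to Col1a1 gave a log2 difference of -0.42 (exact p = 0.524). Col4a1 to Col1a1 was 8.43 in responders and 5.79 in non-responders, at a log2 difference of 0.54 (exact p = 0.505). Without non-responder replicate 1 the log2 difference was 0.47 for Col3a1 to Col1a1, -0.38 for Col1a1 to Col1a2, -1.09 for Sparc to Col1a1 and -0.13 for Col4a1 to Col1a1, the last with its sign reversed. Reln to Lrat was then at -1.95 (exact permutation test, adjusted p = 0.190). Its ratio was at most 5.69 in responders, and 10.3, 6.15 and 7.48 in non-responder replicates 2 to 4, without overlap. Again none of the 8 passed after adjustment. With fewer libraries the smallest p possible is higher, so these tests could not decide whether the ratios differed.

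**Figure D4:**
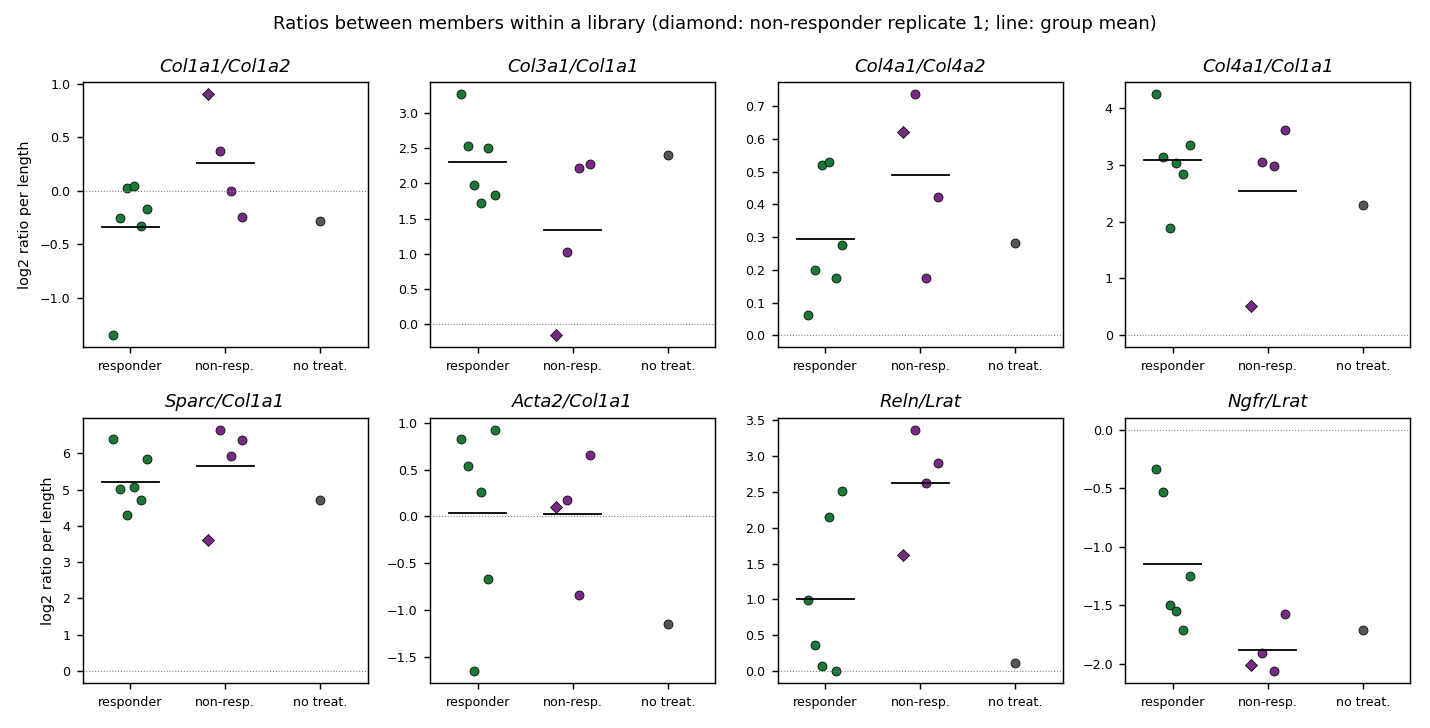
Log2 ratio per length between pairs of the genes within each library (points), in responders, non-responders and the no-treatment library, with group means as lines and non-responder replicate 1 as a diamond. Reln to Lrat lies lower in responders than in non-responders on average (geometric mean 2.02 against 6.19), and the groups overlap in all 8 panels.

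Genes were also counted by lists chosen for their roles. Some of the 10 genes are on these lists themselves, so their calls are counted again here. Col4a1 and Col4a2 are among the lower basement membrane genes. Of 17 basement membrane genes tested, 5 were lower, 1 was higher and 11 did not pass, with a median log2 fold change of -0.26 (-0.16 without non-responder replicate 1 and -0.08 without replicate 2). Nid1, the linker nidogen, averaged 47.6 ± 42.0 CPM in responders and 222.1 ± 83.1 CPM in non-responders, which edgeR put at -2.23 ± 0.58 on the log2 scale (adjusted p = 0.0375). Lama5, a laminin chain, was at -2.07 ± 0.47 (adjusted p = 0.0280), and both genes' groups did not overlap. Col18a1, whose collagen holds the endostatin fragment, was higher, at 903.0 ± 125.0 CPM in responders and 584.3 ± 100.5 CPM in non-responders (0.62 ± 0.16, adjusted p = 0.0372). Of 14 fibrillar and associated collagens 0 passed in edgeR, 7 had an unadjusted p under 0.05, 2 passed in DESeq2, 0 in limma-voom and 1 in limma-voom with quality weights. Their median was -0.57 and, without non-responder replicate 1, -0.20. The most abundant with Col3a1 was Col14a1, a collagen that binds fibrils, which was at 0.22 ± 0.17 (edgeR adjusted p = 0.433).

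Matrix processing and remodelling genes that passed were all lower in responders. Of 17 collagen processing and crosslinking genes, 3 were lower and 14 did not pass. Tgm2, a transglutaminase that crosslinks matrix proteins, averaged 177.8 ± 31.1 CPM in responders and 372.2 ± 123.3 CPM in non-responders (-1.07 ± 0.21, edgeR adjusted p = 0.0187). Lox (-3.11 ± 0.88, adjusted p = 0.0479) and Loxl4 (-2.13 ± 0.53, adjusted p = 0.0319), lysyl oxidases, rested on few reads, with 39 and 118 in responders and 207 and 392 in non-responders. Of 15 matrix remodelling genes, 3 were lower: Plat, the tissue plasminogen activator (-2.89 ± 0.62), Fap, a protease of activated fibroblasts (-1.66 ± 0.47, from 40 reads in responders and 89 in non-responders), and Mmp12, a macrophage elastase (-1.31 ± 0.28). Of 20 matricellular proteins and proteoglycans, 2 were lower, Sparc and the microfibril gene Fbn1 (-0.74 ± 0.21), and 1 was higher, Ecm1 (0.88 ± 0.22).

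Among 23 tested stellate cell genes, 6 were higher, 2 were lower and 15 did not pass. Lrat, Reln and Ngfr are on this list, and Ngfr is among the 6 higher. The median log2 fold change was 0.61 (0.62 without non-responder replicate 1 and 0.41 without replicate 2). Summed CPM of the list overlapped, at 943.3 to 1000.4 in responders and 757.7, 749.4, 1027.4 and 957.6 in non-responder replicates 1 to 4. By this sum the highest treated library was a non-responder, and only replicates 1 and 2 lay below the responders. The genes named next that passed were all higher, and the 2 lower genes are not among them. Hgf, the hepatocyte growth factor that stellate cells supply to hepatocytes, averaged 10.9 ± 2.42 CPM in responders and 5.16 ± 1.69 CPM in non-responders (1.06 ± 0.25, edgeR adjusted p = 0.0271). Cxcl12, a chemokine of stromal cells, averaged 424.8 ± 76.1 CPM in responders and 211.1 ± 59.6 CPM in non-responders, with no overlap (adjusted p = 0.0210). Vipr1, a receptor for vasoactive intestinal peptide, was at 0.93 ± 0.24 (adjusted p = 0.0350), also without overlap. Desmin, Des, a filament protein of stellate and muscle cells, was at -0.20 ± 0.42 (adjusted p = 0.799).

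Of 12 retinoid metabolism genes, 3 were higher and 2 lower. Aldh1a1, which makes retinoic acid, averaged 970.3 ± 135.3 CPM in responders and 477.7 ± 212.8 CPM in non-responders (1.02 ± 0.27, edgeR adjusted p = 0.0363). Cyp26a1, which breaks it down, was at 0.77 ± 0.20 and Rdh10, which oxidises retinol, at 0.44 ± 0.12. Bco1, which cleaves carotene to retinal, was lower, at 8.37 to 34.6 CPM in responders and 50.9 to 80.5 CPM in non-responders (-1.92 ± 0.44, adjusted p = 0.0276).

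Of 20 genes of TGFβ and PDGF signalling, the main drivers of stellate cell activation, 2 were higher and 1 was lower. Smad7, an inhibitor of TGFβ signalling, averaged 18.6 ± 8.87 CPM in responders and 7.32 ± 1.42 CPM in non-responders (1.34 ± 0.34, edgeR adjusted p = 0.0329), and Bambi, a decoy receptor, was at 0.68 ± 0.20 (adjusted p = 0.0490). Tgfbr2, a TGFβ receptor, was lower, at 26.2 ± 10.4 CPM in responders and 57.7 ± 18.4 CPM in non-responders (-1.15 ± 0.28, adjusted p = 0.0313). Of 9 partners of the p75 receptor and of reelin, Ntrk2, a neurotrophin receptor (1.67 ± 0.40, adjusted p = 0.0300), and Vldlr, a reelin receptor (0.85 ± 0.21, adjusted p = 0.0299), were higher. Of 10 contractile genes, Tpm1, a tropomyosin, was lower (-0.96 ± 0.19, adjusted p = 0.0187) and 9 did not pass, with a median of -0.90 that was -0.19 without non-responder replicate 1.

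**Figure D5:**
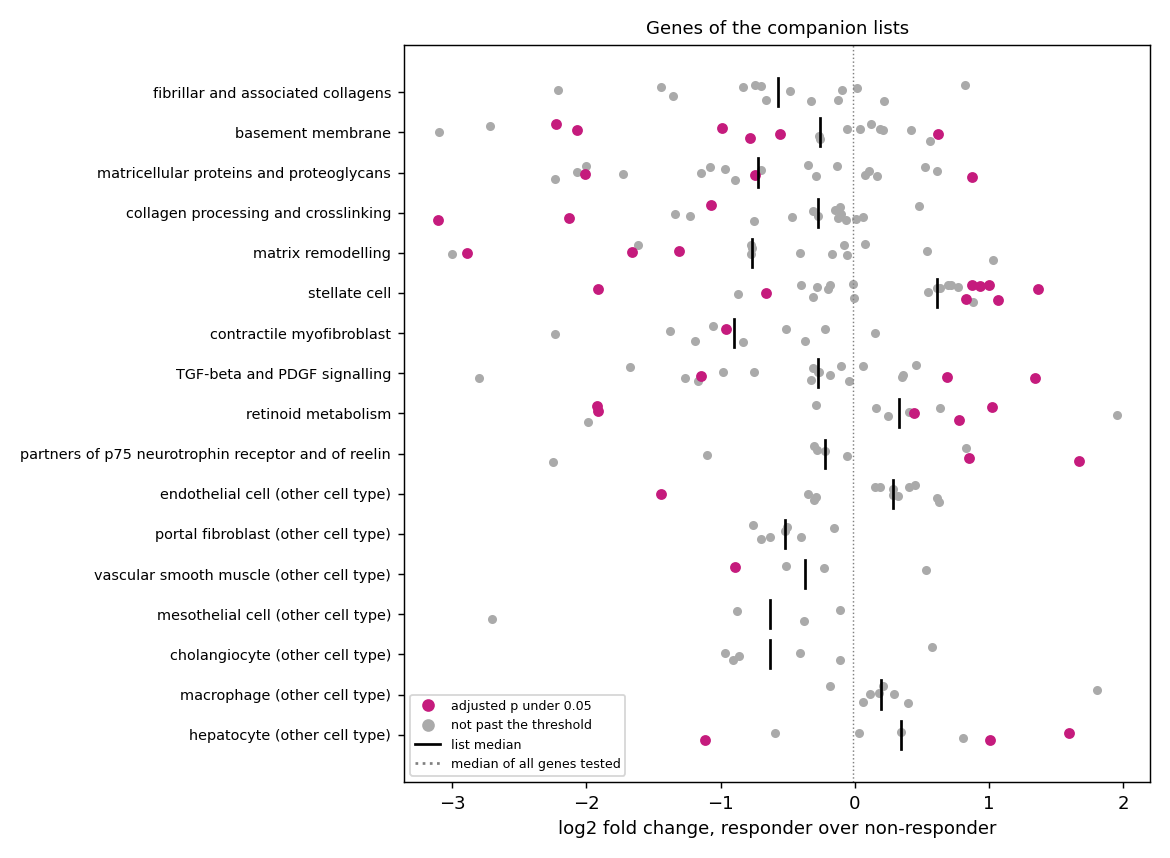
Log2 fold change of responders over non-responders for each gene of the lists (points; coloured where the adjusted p is under 0.05), with list medians as black bars and the median of all genes tested as a dotted line. Stellate cell genes have a median of 0.61 and fibrillar collagens one of -0.57, against -0.02 over all genes.

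Calls of the list genes depended on the libraries in the fit: of the 10 fits with a library removed, Lyve1 passed in 9, Tpm1 in 8, Cxcl12, Tgm2 and Mmp12 in 7, and Fbn1 in 0, while Lox and Fap passed in 2. Without non-responder replicate 2 no gene of any of these lists passed in edgeR. Of all genes, 79 of 17894 (0.441%) passed in that fit, with 3906 at an unadjusted p under 0.05. Without non-responder replicate 1, 9.6% of all genes passed, and 2 of 17 basement membrane and 7 of 23 stellate cell genes did. In that fit 0 genes passed of TGFβ and PDGF signalling (3 in the full fit), of p75 and reelin partners (2) and of smooth muscle (1). Retinoid metabolism kept 4 of 5 calls, and collagen processing, remodelling and matricellular genes each kept 2 of 3.

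Other cell types that a liver sample holds were read from their own lists. Summed CPM of 13 endothelial genes ran from 404.6 to 652.2 in responders and from 316.8 to 540.0 in non-responders, and 1 of them, the lymphatic and sinusoidal receptor Lyve1, passed, lower in responders (-1.44 ± 0.24, edgeR adjusted p = 0.0149). Portal fibroblast genes summed to 32.3 to 58.0 CPM in responders and 45.9 to 69.3 CPM in non-responders, and 0 of 7 passed in edgeR, Thy1 and Entpd2 included (1 at an unadjusted p under 0.05 and 1 in DESeq2). Smooth muscle genes summed to 55.1 to 79.0 CPM in responders and 47.7 to 77.7 CPM in non-responders, with Smtn lower (-0.89 ± 0.23, adjusted p = 0.0357) and Myh11 at 2.41 ± 0.77 CPM in responders and 3.42 ± 2.26 CPM in non-responders. Mesothelial genes summed to at most 2.54 CPM in responders and 10.4 CPM in non-responders, and the highest library was non-responder replicate 3; 0 of 4 passed in edgeR or DESeq2 (1 at an unadjusted p under 0.05). Cholangiocyte genes summed to 17.7 to 26.2 CPM in responders and 26.1 to 70.0 CPM in non-responders, highest in non-responder replicate 2, and 0 of 6 passed in edgeR (2 at an unadjusted p under 0.05 and 1 in DESeq2). Macrophage genes summed to 156.6 to 536.8 CPM in responders and 62.5 to 366.6 CPM in non-responders, lowest in non-responder replicate 1, and 0 of 8 passed in edgeR or DESeq2 (0 at an unadjusted p under 0.05). Summed CPM of hepatocyte genes did not overlap, at 78194 to 91697 in responders and 103434 to 122213 in non-responders, with albumin, Alb, the most abundant of them, at -0.60 ± 0.18 (adjusted p = 0.0524). The median of the 7 hepatocyte genes ran the other way, at 0.35, and was 0.04 without non-responder replicate 1. In this list 2 genes were higher, Cps1 of the urea cycle (1.59 ± 0.45, adjusted p = 0.0462) and the protease inhibitor Serpina1a (1.01 ± 0.29), 1 was lower, the apolipoprotein Apoa1 (-1.11 ± 0.25, adjusted p = 0.0248), and 4 did not pass. No gene of these lists was at 0 in all treated libraries, and the part of any of these cell types in the values above was not tested.

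Genes whose log2 CPM varied most like that of a given gene over the 10 treated libraries, with group means removed, were named as a description, with Pearson's r, and all share libraries and scaling. For Sparc these were App (r = 0.993), Anxa5 (0.988) and Scarb1 (0.980), while Ngfr ran opposite to Sparc (r = -0.900) and Col4a1 with it (0.907). For Col1a1 they were Acin1 (0.980), Sbno2 (0.977) and Abca7 (0.969), and among the 10 genes Col1a2 (0.970) and Col3a1 (0.886). Without non-responder replicate 1, over 9 libraries, these were 0.970, 0.940 and 0.919 for the 3 genes, 0.958 for Col1a2 and 0.731 for Col3a1. Acta2 was closest to Rnf220 (0.986), Zdhhc18 (0.981) and Junos (0.976), at 0.977, 0.954 and 0.944 without that library. Lrat was closest to Col14a1 (0.940), Fam98c (0.902) and Gsn (0.892), and Ngfr to RP24-497L12.1 (0.933), Rpp40 (0.931) and D10Jhu81e (0.923).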

How the data were processed

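RNA was taken from mouse livers with TRIzol and made into Illumina libraries, per the labels' protocols. Per the submitters' processing notes, FastQC was used and the build is mm10. Aligner, counter, annotation and strandedness: not given in the sources used here. Each gene and library has a raw count and an RPKM value in the deposited table, and a second deposited table gives a count per exon, per the file headers. The authors' RPKM divides by the listed length and by a library total of which the gene counts are 64.2% to 72.6%. No column lacked a sample (0 unmapped columns).

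Responders (6) and non-responders (4) were grouped by the response label and tested in R 4.3.3 with edgeR 4.0.16 (genes kept by filterByExpr, TMM scaling, robust quasi-likelihood F test, Benjamini-Hochberg, threshold 0.05). The SE is the log2 fold change divided by the root of F. Printed CPM uses TMM over all 11 libraries and the fit over the 10 treated ones. Ratios are counts per listed length with 0.5 counts added, tested by exact permutation in scipy 1.17.1. The 3′ coverage index uses genes with 4 or more exons and a mean of 200 or more reads, and the 3′ part of a gene is the exons past the midpoint of its exon bases in 1 transcript. Level order uses log2(RPKM + 0.01). The code was tested on simulated data. Alternatives were other scalings and filters, DESeq2 1.42.0, limma 3.58.1 voom with and without quality weights, summed exon counts, 3 covariates, the no-treatment library in the model and leaving out each library.

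Named genes were the 10 genes, the members of each list past the threshold (up to the 5 with the largest change, or the 2 most abundant where fewer than 2 passed), defining markers, and the 3 most alike of 5 genes; Des was named outside this rule. A gene that the rule took is not reported here. The genes, lists and tests were chosen with earlier results of these data known. The macrophage gene Adgre1 is listed as Emr1, and 1 list symbol was not found. Counting error only is covered by depth.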

Additional observations from a re-analysis of the deposited data

Results flagged for a closer look

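In 36 groups of 4 or 6 values (each gene and each ratio in responders and in non-responders), 5 had a library far from the rest of its group by Dixon's test, where chance flags about 1 in 20. In 4 of them the library was non-responder replicate 1: Col1a1 at 80.9 CPM against 13.5 CPM in the next highest non-responder, Col1a2 at 80.0 against 19.3 CPM, Col3a1 at 108.4 against 52.2 CPM, and Acta2 at 23.6 against 4.15 CPM. This library also had the 3′ coverage index of 0.86, and its part in these values was not tested. In the fifth group the log2 ratio of Col1a1 to Col1a2 was -1.35 in responder replicate 1, against -0.33 in the next lowest responder; that library had 40 reads of Col1a1 and 191 of Col1a2.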

How the results depend on the processing

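No paired analysis was possible because title numbers differ in every library and replicate numbers follow accession order. Leaving out each library gave 38 to 836 genes higher and 41 to 1158 lower, and 0 to 1 of the 10 genes higher and 0 to 4 lower. Genes higher and lower came to 1396 and 1661 with DESeq2, 1611 and 2012 with limma-voom quality weights, 0 and 1 with the title number as covariate (1857 at an unadjusted p under 0.05) and 0 and 0 with the exon index (1048). Of the 10 genes, 0 were higher with each of the 3 covariates. Those lower came to 5 with DESeq2, which added Col1a1 (adjusted p = 0.0324) and Acta2 (0.0446), 1 each with library size only, no filter, summed exon counts and the 3′ coverage index, and 0 with the title number and with the exon index. Signs reversed with the exon index for Col1a1 (0.21), Col1a2 (0.14), Col4a1 (0.019) and Acta2 (0.75), and with the title number for Reln (0.32). Of 229 comparisons of a gene's fold change with an alternative, 185 kept direction and side of the threshold, 35 lost the threshold, 4 gained it and 5 reversed. Leaving out a library gave log2 differences of -0.27 to 0.35 for Acta2 to Col1a1 and -0.13 to 0.90 for Col4a1 to Col1a1. With a minimum count of 50 no mesothelial gene was left to take a median of. The causes were not tested. Low read numbers limit the precision for Fap, Lox and Acta2. The correlations and the order of levels without non-responder replicate 1 were added after seeing the data.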
